A study of Rattus norvegicus with 6 samples.

Results

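The endoplasmic reticulum folds, modifies and inspects secreted and membrane proteins. The 46 genes described here are its chaperones, oxidoreductases, degradation factors and stress sensors. They were chosen by gene symbol from the 17273 genes of the larger deposited table: 29 encode chaperones and oxidoreductases, 11 act in endoplasmic-reticulum-associated degradation (ERAD), and 6 are stress sensors, transcription factors or the proteases that activate one of them. All 46 had a row in the table, and all passed the filter on low counts that left 13747 genes for testing. The measurements came from nucleus pulposus cells, the cells of the gel-like core of the intervertebral disc, of male wild-type Sprague Dawley rats. The cells were cultured in DMEM with serum. Bulk RNA-seq libraries were made from 3 samples exposed to 10 mM lactate for 8 h and from 3 untreated control samples of the same cells. The labels do not say whether the 3 samples of a group were separate cultures or animals, so the p-values below compare libraries whose spread may be no more than technical. They also leave unsaid if lactic acid or a lactate salt was added.

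Proteins enter the endoplasmic reticulum unfolded. Chaperones of the Hsp70 and Hsp90 families and the lectins calnexin and calreticulin hold them there, J-domain proteins direct the Hsp70 chaperone BiP to its clients, and protein disulfide isomerases, reoxidised by Ero1, form their disulfide bonds. Clients that do not fold are drawn out through the Hrd1 ligase complex, ubiquitinated and passed to the proteasome, which is ERAD. When unfolded protein accumulates, the sensors IRE1, PERK and ATF6 start the unfolded protein response: IRE1 splices the mRNA of the transcription factor XBP1, PERK phosphorylates eIF2α and thereby raises translation of ATF4, and ATF6 moves to the Golgi, where site-1 and site-2 proteases release its active part. Disc cells secrete large amounts of collagen and proteoglycan and so send a heavy protein load through this organelle.

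The promoters of some of these genes carry a DNA element on which XBP1 and ATF6 are known to act together with NF-Y. It is shown here because it is shared by genes that moved in opposite directions. Of those among the 46 genes, Xbp1 alone was called lower on the TMM scale described below. RefSeq promoter sequences of the rat assembly GRCr8, from 250 bases before to 50 bases after each start, were matched by symbol for 37 of the 46 genes, with 38 promoters among them. Both strands were searched for the endoplasmic reticulum stress element (ERSE: CCAAT, then 9 bases, then CCACG). It was found in 9 of the 38 promoters (23.7%), against 22 of all 33469 promoters in the table (0.0657%). The sites of 6 genes are printed 5′ to 3′ in the direction of the element with 6 flanking bases on each side, and capitals mark CCAAT and CCACG. The strand is that of the genome on which the printed letters lie.
Hspa5, chr3:38452967-38452997, plus strand: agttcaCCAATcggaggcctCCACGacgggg
Derl3, chr20:12766595-12766625, plus strand: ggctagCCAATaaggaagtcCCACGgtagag
Creld2, chr7:121789233-121789263, minus strand: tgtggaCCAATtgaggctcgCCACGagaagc
Calr, chr19:40213129-40213159, minus strand: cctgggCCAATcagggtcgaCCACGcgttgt
Ero1b, chr17:92941452-92941482, minus strand: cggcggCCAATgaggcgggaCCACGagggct
Xbp1, chr14:84604552-84604582, plus strand: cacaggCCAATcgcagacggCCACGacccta
The other 3 genes with an ERSE were Hsp90b1, whose promoter held a pair of them, Canx and Dnajc3. The related ERSE-II element (ATTGG, any base, CCACG) was found in 3 of the 38 promoters (7.89%), those of Hyou1, Herpud1 and Dnajb11, against 17 of 33469 (0.0508%). A site of Hyou1 and that of Herpud1 read as follows, with ATTGG and CCACG in capitals.
Hyou1, chr8:53602788-53602810, minus strand: gtccccATTGGgCCACGtagaag
Herpud1, chr19:10614815-10614837, minus strand: gcgctgATTGGgCCACGttgggc
The pair of promoters at the ends of the range of fold changes are given at greater length on the same assembly, with the ERSE in capitals.
Hspa5, chr3:38452816-38453015, plus strand: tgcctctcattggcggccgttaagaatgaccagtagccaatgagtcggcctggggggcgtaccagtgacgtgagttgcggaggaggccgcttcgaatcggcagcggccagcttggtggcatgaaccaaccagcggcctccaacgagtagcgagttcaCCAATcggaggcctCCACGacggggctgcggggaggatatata
Xbp1, chr14:84604503-84604622, plus strand: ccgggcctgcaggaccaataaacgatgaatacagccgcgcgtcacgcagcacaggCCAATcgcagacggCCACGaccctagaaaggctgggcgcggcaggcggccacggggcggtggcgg

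Libraries held between 30291357 and 35512356 counts in the lactate group and between 33584741 and 38989574 in the control group, and libraries correlated at 0.958 to 0.974 within groups and at 0.852 to 0.875 between them (Pearson, log2 CPM). The groups did differ in make-up: the 20 most abundant genes took 29.7 to 33.7% of the counts in lactate libraries and 19.7 to 21.0% in control libraries. TMM scaling factors, which set the bulk of genes near no change, were 0.702 to 0.806 in lactate and 1.33 to 1.36 in control. With library totals in place of TMM factors the median log2 fold change of all genes tested moved to -0.96, against -0.10 with TMM factors, so results are given on both scales. Levels below are CPM, counts divided by the TMM-scaled library size, unless FPKM is named. Among markers of the labelled cell type, the cartilage proteoglycan Acan stood at 2290 ± 183 CPM in lactate and 2393 ± 159 CPM in control (SD, n = 3 each). Of the 10 nucleus pulposus and notochord markers tested, 3 were called higher (Cd24, Sox9 and Ca12), 3 lower (Pax1, Cdh2 and Foxa2) and 4 neither. The 4 were Acan, Foxf1, Krt8 and Col2a1. These calls were made with TMM factors. With library totals 1 of the 10 was called higher, 6 lower and 3 neither, with a median log2 fold change of -0.84. Ca12 rested on 50 counts in lactate and 33 in control. The cartilage collagen gene Col2a1 was barely present, at 0.747 ± 0.451 CPM in lactate and 0.280 ± 0.233 CPM in control. The notochordal markers Tbxt and Krt19 had 0 counts in lactate, where 3 counts would be 0.105 to 0.141 CPM, and 12 and 9 counts in control. Fibroblast and annulus markers, summed over the 7 of 9 genes analysed, came to 100910 to 145493 CPM in lactate and 29598 to 35450 CPM in control, most of it Col1a1. With TMM factors 3 of the 7 were called higher (Col1a1, Thy1 and Dcn), 2 lower (Pdgfra and Mkx) and 2 neither (Scx and Lum). With library totals 2 were called higher, 3 lower and 2 neither. Macrophage markers, over 5 of 7 genes, summed to 4.19 to 5.40 CPM in lactate and 9.65 to 10.7 CPM in control, with Adgre1 at 0 counts in lactate and 4 in control. The 2 macrophage markers tested went opposite ways. Cd14 was called lower, at 2.84 ± 0.47 CPM in lactate and 9.37 ± 0.72 CPM in control. Cd68 was called higher with TMM factors, at 1.48 ± 0.36 CPM in lactate and 0.529 ± 0.186 CPM in control. With library totals Cd68 was not called, at a log2 fold change of 0.64, and Cd14 was still lower, at -2.58. Endothelial markers, over 3 of 6 genes, summed to at most 0.680 CPM in lactate and 0.488 CPM in control. Their part in the results below was not tested, and in bulk RNA fewer cells of a type and less RNA per cell cannot be told apart.

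The main pattern was a rise of the chaperone and oxidoreductase genes and a divided response elsewhere. With TMM factors 32 of the 46 genes were called higher after lactate, 6 lower and 8 neither (edgeR quasi-likelihood test, Benjamini-Hochberg adjusted p below 0.05), with a median log2 fold change of 1.11. Over all genes tested, 31.4% were called higher and 34.6% lower. Genes with high counts leaned upward in general: of the 2750 genes tested with the highest levels, which held 31 of the 46, 59.2% were called higher and the median log2 fold change was 0.55. With library totals 23 of the 46 genes were called higher and 16 lower, with a median of 0.25. Over all genes tested on that scale 12.5% were called higher and 61.8% lower. Of the 2750 genes with the highest levels, 730 were then called higher and 1358 lower, with a median of -0.31. The 23 were all among the 32, of which 7 were no longer called and 2 turned to a lower call. In 33 genes every lactate library lay above every control library, in 8 every lactate library lay below, and in 5 the groups overlapped; over all genes tested the groups failed to overlap in 72.2%. The change was at least 2-fold upward in 25 genes and at least 2-fold downward in 3, against 2493 and 3095 of the 13747 genes tested and 879 and 195 of the 2750 with the highest levels.

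Replicates lay close together: the median coefficient of variation over the 46 genes was 6.81% among lactate libraries and 5.97% among control libraries, and the largest were those of Eif2ak3 in lactate (39.6%) and Derl3 in control (18.9%). The 3 roles differed in their counts. Of the 29 chaperone and oxidoreductase genes, 25 rose, 1 fell and 3 were not called, and the median log2 fold change was 1.38 (0.52 on library totals, where 18 rose and 6 fell). Of the 11 ERAD genes, 5 rose, 2 fell and 4 were not called, with a median of 0.31 that turned to -0.54 with library totals. Of the 6 sensors and factors, 2 rose (the sensors Ern1 and Eif2ak3), 3 fell (Xbp1 and the proteases Mbtps1 and Mbtps2) and 1, the sensor Atf6, was not called. The median of the 6 was -0.18. It was -1.05 with library totals and turned to 0.04 once a trend on transcript length, described below, was taken out. No test between the 3 roles was made, since their members were chosen with results known.

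**Figure D1:**
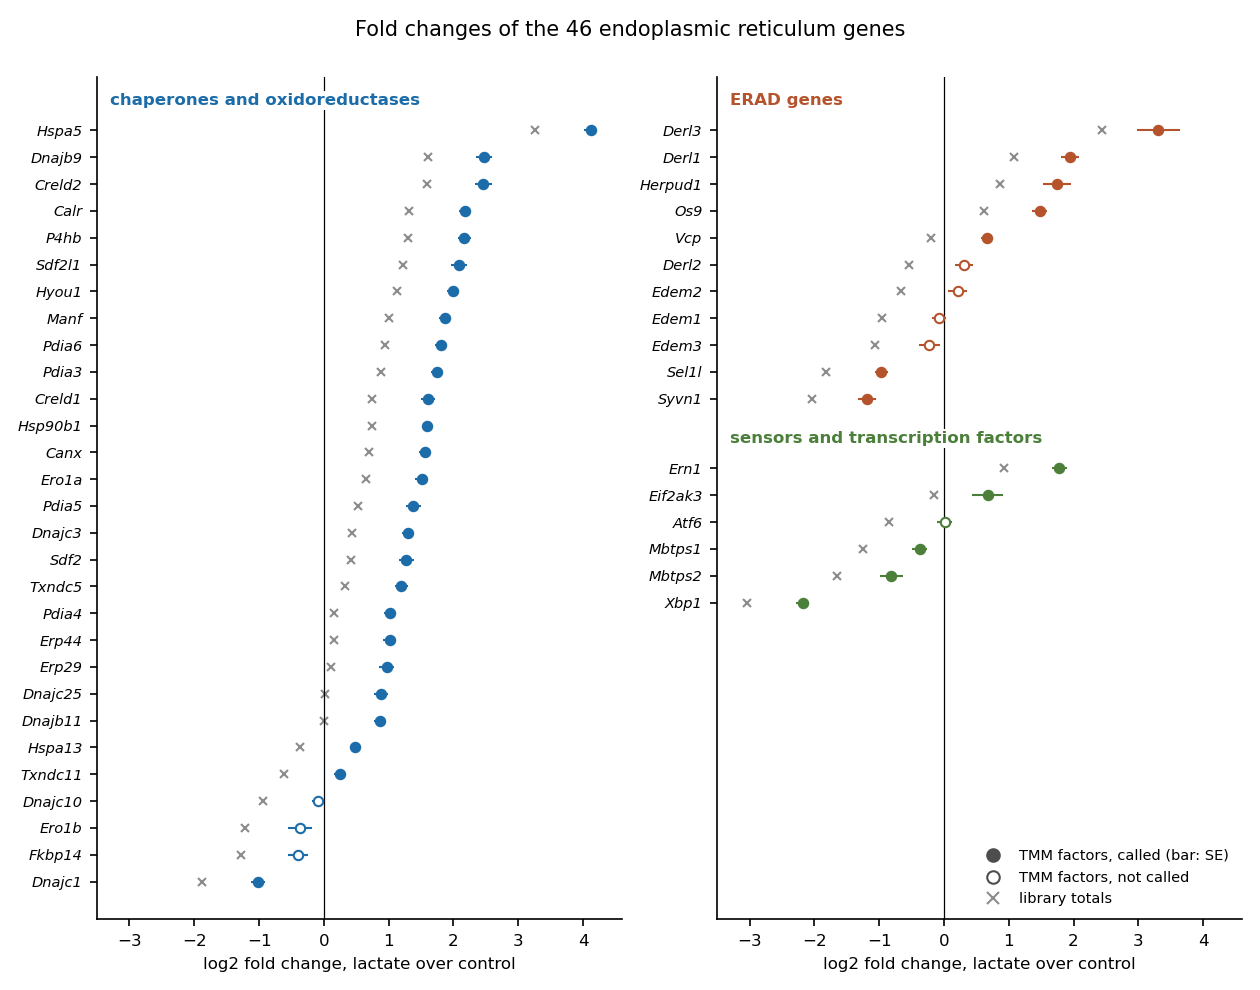
Log2 fold change of lactate over control for each of the 46 genes by role, with TMM factors (circles, filled where the adjusted p was below 0.05, bars SE) and with library totals (crosses). The circles of 25 of 29 chaperone and oxidoreductase genes lie right of 0 as calls, while ERAD genes lie on both sides. The sensors Ern1 and Eif2ak3 lie right of 0 and Atf6 close to 0, while Xbp1, Mbtps1 and Mbtps2 lie left of 0. With library totals every gene sits lower, and Hspa13, Txndc11, Vcp, Derl2, Edem2, Eif2ak3 and Atf6 cross to the left of 0.

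Hspa5, which encodes BiP, the main Hsp70 chaperone of the organelle, changed most. It stood at 25420, 26087 and 24405 CPM in the lactate libraries and 1455, 1462 and 1454 CPM in the control libraries. The groups were far apart, and the control libraries nearly coincided. The log2 fold change was 4.12 ± 0.10 (SE), a 17.4-fold rise with an adjusted p of 2.3e-07, and it was 3.26 with library totals. Hspa5 alone took 1.83, 1.83 and 1.97% of all counts in the lactate libraries, against 0.198, 0.194 and 0.197% in the control libraries. By FPKM, which corrects for gene length, Hspa5 was the 5th most abundant of all genes in lactate, at 7078 ± 302 FPKM, and the 73rd in control, at 746 ± 8.56 FPKM.

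The other Hsp70 and Hsp90 chaperones rose less. Hyou1, the large Hsp70 that exchanges nucleotide on BiP, was at 1236, 1251 and 1098 CPM in lactate and 318, 289.7 and 296 CPM in control, a log2 fold change of 1.99 ± 0.09 (adjusted p = 1.9e-06). Hsp90b1, which encodes GRP94, the Hsp90 of the organelle, was at 3405 ± 166 CPM in lactate and 1124 ± 30.3 CPM in control (log2 fold change 1.60 ± 0.09). Hspa13, a microsomal Hsp70, was called higher with a log2 fold change of 0.48 ± 0.09 with TMM factors but lower, at -0.37, with library totals. The lectin chaperones both rose. Calr, calreticulin, was at 5940, 5956 and 5560 CPM in lactate and 1240, 1281 and 1351 CPM in control (log2 fold change 2.17 ± 0.09, adjusted p = 1.3e-06). Canx, its membrane-bound relative calnexin, had a log2 fold change of 1.56 ± 0.08.

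J-domain cochaperones, which hand clients to BiP, did not move together. Dnajb9, which encodes ERdj4, was at 103, 122 and 99.9 CPM in lactate and 21.1, 18.8 and 18.7 CPM in control (log2 fold change 2.47 ± 0.12, adjusted p = 2.0e-06). Dnajc3, p58IPK, rose by 1.29 ± 0.09 on the log2 scale and kept its call with library totals at 0.43. Dnajb11 and Dnajc25 rose by 0.86 ± 0.08 and 0.88 ± 0.11 with TMM factors, but lay at 0.0032 and 0.018, uncalled, with library totals; limma on log2 FPKM put Dnajb11 at -0.0086. Dnajc1, a membrane J-domain protein, was the only gene of the 29 called lower with TMM factors: it was at 16.6, 16.3 and 15.7 CPM in lactate and 31.5, 33.4 and 33.5 CPM in control (log2 fold change -1.02 ± 0.11, adjusted p = 6.0e-05). Dnajc10, the disulfide reductase ERdj5, overlapped between groups, at 190.4 ± 11.4 CPM in lactate and 202 ± 12.4 CPM in control (log2 fold change -0.09 ± 0.09, adjusted p = 0.45).

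Of the 6 other luminal folding factors 5 rose. Creld2, a secreted stress-inducible disulfide isomerase, was at 278, 265 and 209 CPM in lactate and 49.2, 41.0 and 46.5 CPM in control, a log2 fold change of 2.46 ± 0.14 (adjusted p = 2.7e-06). The third lactate library was the lowest of its group, yet above all controls. Sdf2l1, a partner of ERdj3 and BiP, was at 87.9, 89.1 and 82.4 CPM in lactate and 22.9, 17.7 and 20.3 CPM in control, a log2 fold change of 2.09 ± 0.12 (adjusted p = 3.2e-06). Its paralog Sdf2 rose by 1.27 ± 0.12. Manf, a secreted protein that binds BiP, was at 390.3 ± 17.2 CPM in lactate and 107 ± 6.49 CPM in control (log2 fold change 1.87 ± 0.09), and Creld1, the membrane-anchored relative of Creld2, rose by 1.60 ± 0.11. Fkbp14, a prolyl isomerase that acts on collagen, was lower in all lactate libraries, at 25.8 ± 4.55 CPM in lactate and 34.0 ± 3.97 CPM in control, with a log2 fold change of -0.40 ± 0.16 and an adjusted p of 0.051. It was called lower with library totals, at -1.27.

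All 9 genes of the protein disulfide isomerase family rose with TMM factors, by 0.24 to 2.17 on the log2 scale, although Txndc11 was lower with library totals, at -0.62, and Pdia4, Erp29 and Erp44 were then not called. The call of Txndc11 (adjusted p = 0.040) was also lost with no filter (0.094), with the replicate block (0.083) and in 5 of the 6 fits without a library. P4hb, protein disulfide isomerase itself and also a subunit of collagen prolyl 4-hydroxylase, was at 5904, 6138 and 5270 CPM in lactate and 1326, 1262 and 1260 CPM in control (log2 fold change 2.17 ± 0.10, adjusted p = 1.6e-06). Pdia6, which also binds BiP, rose by 1.80 ± 0.09. Pdia3, which encodes ERp57, the partner of calnexin and calreticulin, rose by 1.75 ± 0.09. Pdia5 and Txndc5 rose by 1.38 ± 0.12 and 1.20 ± 0.10. Pdia4 was at 726 ± 39.5 CPM in lactate and 357 ± 19.8 CPM in control. Erp44, which retains Ero1 in the organelle, was at 188 ± 14.3 CPM in lactate and 93.0 ± 4.70 CPM in control, and Erp29 at 91.4 ± 5.63 CPM in lactate and 46.7 ± 4.83 CPM in control. Their log2 fold changes were 1.02 ± 0.09, 1.02 ± 0.10 and 0.97 ± 0.11, against 0.16, 0.15 and 0.10 with library totals. The Ero1 oxidases, which reoxidise these enzymes, parted: Ero1a rose by 1.51 ± 0.10, while Ero1b, at 5.26 ± 0.756 CPM in lactate and 6.78 ± 0.571 CPM in control, had a log2 fold change of -0.37 ± 0.19 and an adjusted p of 0.12. With library totals Ero1a was still called higher, at 0.65, and Ero1b was called lower, at -1.22.

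**Figure D2:**
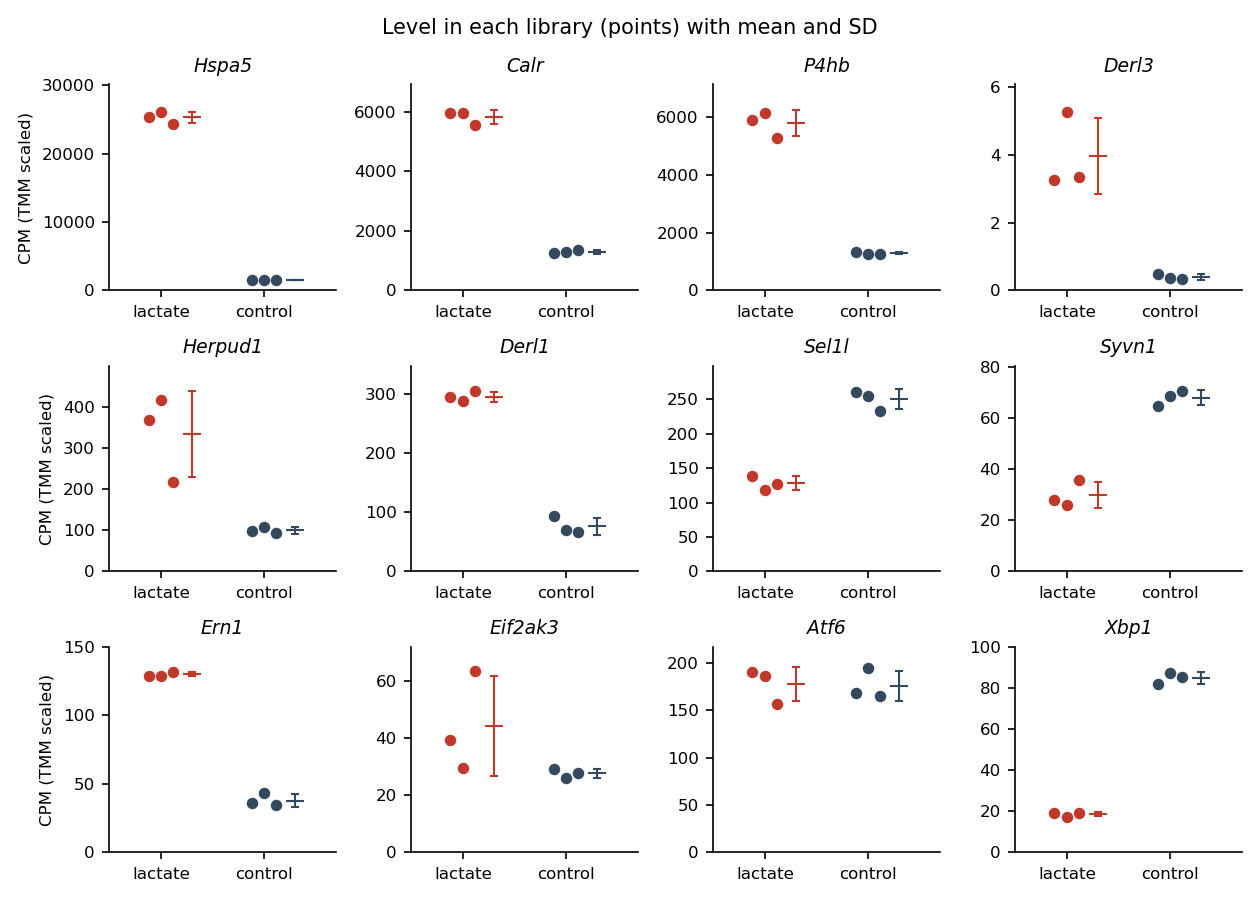
Level of 12 of the genes in each library, in CPM on the TMM scale, with each group's mean and SD beside its points; lactate is on the left of each panel. The lactate points of Hspa5, Calr, P4hb, Derl1 and Ern1 sit together far above the controls, those of Herpud1 and Eif2ak3 are spread, those of Atf6 overlap the controls, and those of Sel1l, Syvn1 and Xbp1 lie below; on the library-total scale Eif2ak3 has a lower mean in lactate.

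The ERAD genes were divided within a single complex. Syvn1 and Sel1l, the Hrd1 ubiquitin ligase and its stabilising partner, fell. Syvn1 was at 27.8, 26.1 and 35.8 CPM in lactate and 64.7, 68.7 and 70.5 CPM in control (log2 fold change -1.19 ± 0.14, adjusted p = 9.2e-05). Sel1l was at 138, 119 and 127 CPM in lactate and 261, 255 and 233 CPM in control (log2 fold change -0.96 ± 0.10, adjusted p = 4.6e-05). No lactate library reached the lowest control library in either gene. With the trend of fold change on transcript length removed the values were -0.89 for Syvn1 and -0.56 for Sel1l, both still called lower.

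Of the 5 other genes of the complex 4 rose. Derl3, a derlin that helps draw substrates across the membrane, was at 3.27, 5.27 and 3.36 CPM in lactate and 0.481, 0.368 and 0.339 CPM in control. It had the second largest rise of the 46 genes, a log2 fold change of 3.31 ± 0.34 (adjusted p = 4.3e-05), but rested on 72, 112 and 96 counts in lactate and 22, 19 and 16 counts in control. Derl1, another derlin, was at 294, 288 and 304 CPM in lactate and 93.0, 69.8 and 66.9 CPM in control (log2 fold change 1.95 ± 0.14). Derl2 was not called with TMM factors (0.31 ± 0.14, adjusted p = 0.072); it was called higher with RLE factors (0.35, adjusted p = 0.04) and DESeq2 (0.35, adjusted p = 0.027) and lower with library totals (-0.54).

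Herpud1, a scaffold that joins Hrd1 to the derlins, was at 367, 416 and 216 CPM in lactate and 97.5, 109 and 92.7 CPM in control. The third lactate library was well below the other lactate libraries and still above every control library. The log2 fold change was 1.74 ± 0.22 (adjusted p = 0.00015). Os9, the lectin that recognises trimmed glycans for Hrd1, rose by 1.48 ± 0.12. The mannose-trimming genes Edem1, Edem2 and Edem3, which mark misfolded glycoproteins, overlapped between groups, with log2 fold changes of -0.08, 0.21 and -0.23, none called; with library totals all were called lower, at -0.95, -0.66 and -1.07. Vcp, the ATPase that pulls substrates out of the membrane, was higher with TMM factors (log2 fold change 0.66 ± 0.08, adjusted p = 0.00014) and at -0.20, uncalled, with library totals.

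The sensors themselves moved unequally. Ern1, which encodes IRE1α, was at 128.9, 128.8 and 131.5 CPM in lactate and 35.9, 43.1 and 34.3 CPM in control, a log2 fold change of 1.78 ± 0.12 (adjusted p = 4.7e-06; 0.92 with library totals). Eif2ak3, which encodes PERK, was at 39.4, 29.6 and 63.7 CPM in lactate and 29.3, 26.2 and 27.8 CPM in control. The second lactate library was within 1 CPM of the highest control library, and the third was the highest of all. The log2 fold change was 0.67 ± 0.24 (adjusted p = 0.037); it was -0.16 with library totals, and without the third lactate library it was 0.34 with an adjusted p of 0.06. Atf6 was at 189.6, 185.6 and 156.5 CPM in lactate and 168, 194 and 165 CPM in control, with a log2 fold change of 0.01 ± 0.11 (adjusted p = 0.93) that became -0.85 with library totals.

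Xbp1, the transcription factor whose mRNA IRE1 splices, had the largest fall of the 46 genes. It was at 19.3, 17.5 and 19.4 CPM in lactate and 81.9, 87.3 and 85.4 CPM in control. The libraries of each group lay close together and the groups were far apart. The log2 fold change was -2.18 ± 0.10 (adjusted p = 1.9e-06), and it was -3.04 on library totals and -2.52 once the trend on length was taken out. These gene counts do not separate the spliced from the unspliced form. The proteases that cut ATF6 were also lower. Mbtps2, site-2 protease, was at 12.4, 9.22 and 14.7 CPM in lactate and 20.7, 21.7 and 21.6 CPM in control (log2 fold change -0.81 ± 0.18, adjusted p = 0.0034). Mbtps1, site-1 protease, was at 161, 167 and 131 CPM in lactate and 201, 204 and 191 CPM in control (log2 fold change -0.38 ± 0.11, adjusted p = 0.015); with the length trend removed it was -0.21 with an adjusted p of 0.15.

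As a share of the libraries the 46 genes took 4.05, 4.02 and 4.24% of all counts in lactate and 1.56, 1.51 and 1.56% in control. The difference of means was 2.56 percentage points, of which Hspa5 made up 1.68. Without Hspa5 the share was 2.23 ± 0.05% in lactate and 1.35 ± 0.03% in control. The gain lay in the folding genes: chaperones and oxidoreductases took 3.90 ± 0.12% in lactate and 1.29 ± 0.03% in control, while ERAD genes took 0.166 ± 0.003% in lactate and 0.186 ± 0.005% in control. Sensors and factors took 0.0397 ± 0.0020% in lactate and 0.0735 ± 0.0027% in control. These shares carry no TMM factor and so follow the library-total scale, on which the median log2 fold change of the ERAD genes was -0.54. With TMM factors that median was 0.31, with 5 of the 11 ERAD genes called higher and 2 lower, so the direction for ERAD depends on the scaling. On the length-corrected scale Hspa5 made up 43.1 ± 0.55% of the 46 genes' summed FPKM in lactate and 12.1 ± 0.13% in control. ERAD genes made up 3.60% of that sum in lactate and 9.42% in control.

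**Figure D3:**
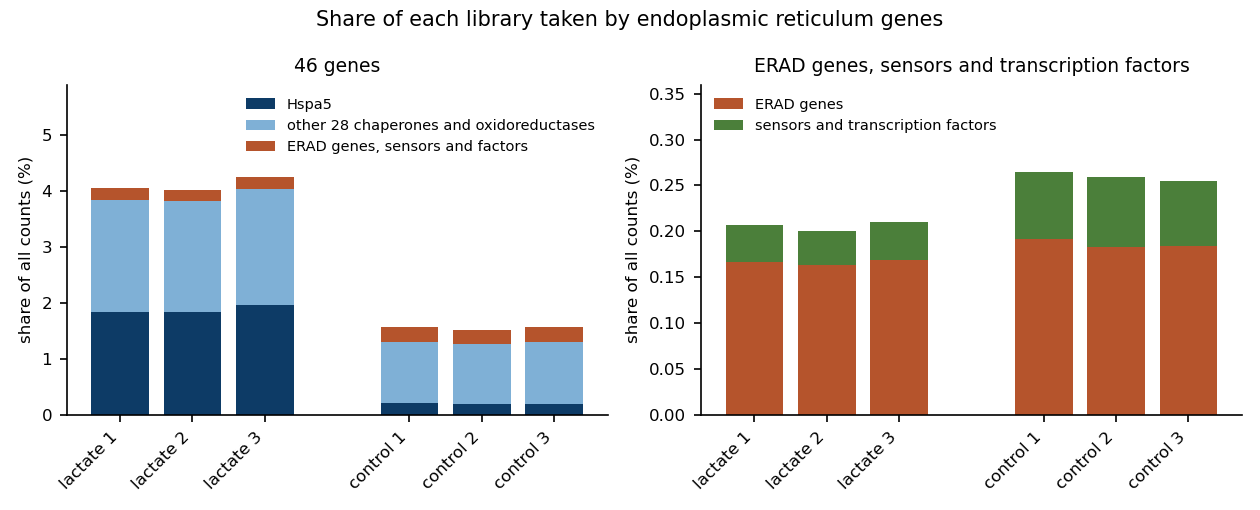
Share of all counts, in percent, taken in each library by the 46 genes (left, stacked) and, on a finer scale, by the ERAD genes and the sensors with their factors (right, stacked). The bars of the 3 lactate libraries reach 4.02 to 4.24% on the left, with Hspa5 alone at 1.83 to 1.97%, against 1.51 to 1.56% in control. On the right the lactate bars are the shorter ones. Shares of all counts follow the library-total scale, and with TMM factors the median log2 fold change of the ERAD genes was above 0, at 0.31.

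The order of the genes by FPKM changed with these shares. In lactate the 5 most abundant were Hspa5, Calr, P4hb, Pdia3 and Hsp90b1; in control Calr (907 ± 41.2 FPKM) stood above Hspa5 and the next places were held by P4hb, Pdia3 and Hsp90b1. Hspa5 and P4hb were close in control, at 746 ± 8.56 and 676 ± 27.2 FPKM. Dnajb9 was the 24th of the 46 genes in lactate, at 40.0 FPKM, and the 41st in control, at 13.1 FPKM. Xbp1 was the 38th in lactate, at 12.1 ± 1.49 FPKM, and the 12th in control, at 99.7 ± 2.10 FPKM. Ern1 was at 13.5 ± 1.18 FPKM in lactate and 7.18 ± 0.793 FPKM in control.

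Ratios of FPKM between a pair of genes within a library do not depend on how libraries are scaled. Of 13 such ratios, chosen after the values were seen and given without a test, 12 did not overlap between groups. The ratio of Hspa5 to Hsp90b1 was 8.19 ± 0.12 in lactate and 1.43 ± 0.04 in control, and that of Hspa5 to its nucleotide exchange factor Hyou1 was 38.8 ± 1.63 in lactate and 8.86 ± 0.45 in control. Derl1 over Sel1l was 5.32 ± 0.37 in lactate and 0.706 ± 0.104 in control, so that the more abundant of the pair differed between groups. The ratio of Ern1 to its substrate Xbp1 was 1.13 ± 0.06 in lactate and 0.0720 ± 0.0075 in control. Among the sensors, Ern1 over Atf6 was 0.502 ± 0.060 in lactate and 0.146 ± 0.005 in control, while Eif2ak3 over Atf6 overlapped, at 0.269 ± 0.137 in lactate and 0.166 ± 0.022 in control. Paralogs also shifted against each other: Sdf2l1 over Sdf2 was 1.46 ± 0.15 in lactate and 0.826 ± 0.049 in control, Creld2 over Creld1 was 3.13 ± 0.39 in lactate and 1.73 ± 0.12 in control, and Ero1a over Ero1b was 30.5 ± 4.71 in lactate and 8.22 ± 1.15 in control.

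**Figure D4:**
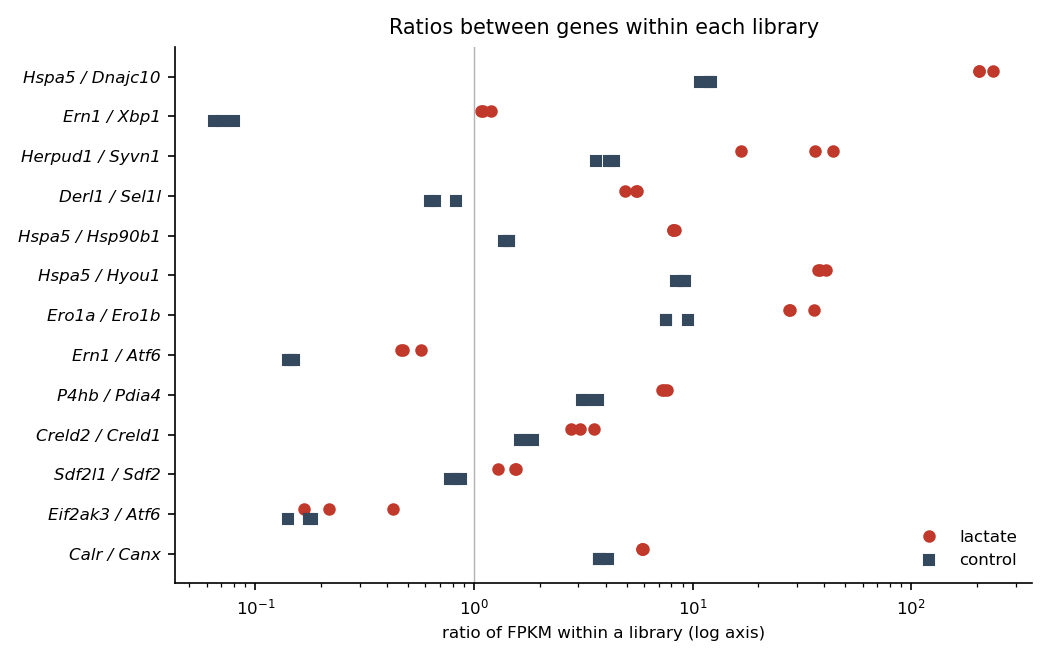
Ratio of FPKM between 13 pairs of genes in each library on a log axis, with lactate libraries as circles and control libraries as squares, ordered by the ratio of the group means. The circles lie right of the squares without overlap in every pair but Eif2ak3 over Atf6; Ern1 over Xbp1 is 1.13 on average in lactate and 0.0720 in control.

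Set beside these values, the promoter elements printed above stood in genes of both directions. The counts that follow stand against 31.4% called higher and 34.6% called lower over all genes tested with TMM factors. Of the 9 genes with an ERSE, 7 were called higher, at log2 fold changes of 1.29 (Dnajc3) to 4.12 (Hspa5). Ero1b was not called with TMM factors but was called lower, at -1.22, with library totals. Xbp1 alone was called lower with TMM factors. The 3 genes with an ERSE-II were called higher with TMM factors, at 0.86 (Dnajb11), 1.74 (Herpud1) and 1.99 (Hyou1), Dnajb11 losing its call with library totals. Over all RefSeq promoters 17 genes held an ERSE-II, of which 10 were tested, 5 called higher and 3 lower; of the 7 of these outside the 46 genes 2 were higher and 3 lower, named after their values were seen as Ggct (1.29) and Nucb1 (1.52), and as Cdc27 (-0.86), Cdc45 (-1.66) and Rcl1 (-1.10). In all of the RefSeq promoters 21 genes held an ERSE, of which 16 were tested, 9 were called higher and 4 lower. Among the 7 of these outside the 46 genes, 2 were higher and 3 lower. They are named after their values were seen: Zfand2a (3.33) and Pan2 (0.41, and -0.44 with library totals) were higher, and Ankmy2 (-1.31), Ppm1l (-0.90) and Zfp57 (-2.09) were lower. The core of the XBP1-binding element, TGACGTGG, was present in 5 of the 38 promoters (13.2%) and 0.595% of all, and the core of the element bound by ATF4 with C/EBP proteins, TGATGCAA, in 1 (2.63%), that of Herpud1, and 0.795% of all. The reverse complement of TGACGTGG begins with CCACG, so that it can share bases with an ERSE-II, as it did at the farther of the pair in Hyou1. A match is a string of letters in this window and not a measured binding site.

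**Figure D5:**
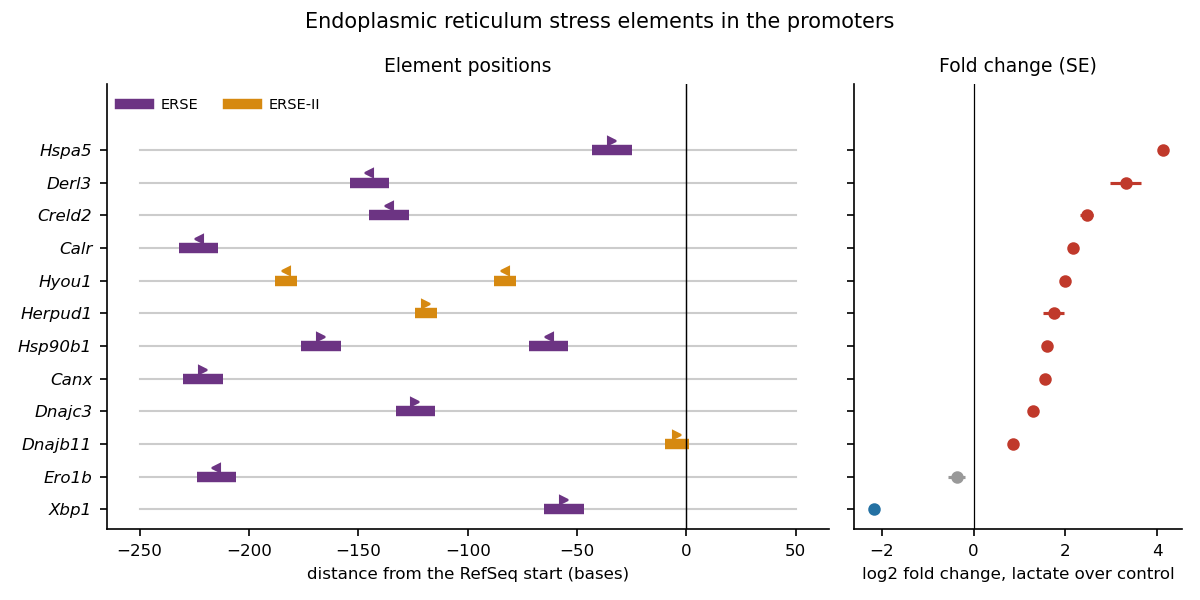
Positions of ERSE and ERSE-II matches relative to the RefSeq start in the promoters of 12 genes (left; arrowheads give the direction of the element relative to the gene) and the log2 fold change of lactate over control with TMM factors (right; bars SE, red called higher, blue called lower, grey not called). The genes run from Hspa5 at 4.12 to Xbp1 at -2.18, with an element in each. With library totals Dnajb11 is not called and Ero1b is called lower.

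Lists of related genes, chosen like the 46 with earlier results known, place these values in their pathways. Over all genes tested 31.4% were called higher and 34.6% lower with TMM factors, with a median of -0.10. With library totals the shares were 12.5% and 61.8%, and the median was -0.96. In the ATF4 and CHOP branch, which PERK and other eIF2α kinases drive, 8 of 13 genes rose and 1, Asns, fell, with a median log2 fold change of 1.70; on library totals 8 rose and 4 fell, and the median was 0.82. Of these 13 genes, 9 were among the 2750 genes with the highest levels, of which 59.2% were called higher with TMM factors. With library totals 730 of the 2750 were called higher and 1358 lower. The medians of the 2750 were 0.55 and -0.31. The call of Asns (adjusted p = 0.031) was lost with RLE factors and in 4 of the 6 fits without a library. Ddit3, which encodes CHOP, was at 572, 574 and 425 CPM in lactate and 21.4, 20.4 and 19.2 CPM in control, a log2 fold change of 4.69 ± 0.15 (adjusted p = 4.9e-07). Atf3, a factor induced by ATF4, rose by 5.70 ± 0.25, and Ppp1r15a and Ppp1r15b, which direct phosphatase to eIF2α, rose by 3.80 ± 0.20 and 2.29 ± 0.11. Atf4 itself was at 800 ± 178 CPM in lactate and 316 ± 24.8 CPM in control (log2 fold change 1.34 ± 0.16, and 0.46 with library totals). The third lactate library was the lowest of its group in TMM-scaled CPM for each of these 5 genes, as it was for 30 of the 46. As a share of all counts the 46 genes together were highest in that library, at 4.24% against 4.05 and 4.02%. Trib3, Chac1, Nupr1 and Eif2s1 were not called.

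Further lists cover glycosylation, entry into the organelle and folding. Of the 2750 genes tested with the highest levels 59.2% were called higher with TMM factors. With library totals 730 of them were called higher and 1358 lower, with a median of -0.31. These 2750 held 13 of the 14 N-glycan genes analysed and 19 of the 27 further folding factors. Of the 14 N-glycan genes analysed of 15, 13 rose and 1, Mogs, fell with TMM factors, and the median log2 fold change was 1.07; on library totals 7 rose and 2 fell, with a median of 0.20. The call of Mogs (adjusted p = 0.042) was lost with RLE factors, with DESeq2, with the trend on length taken out, with the replicate block and in 5 of the 6 fits without a library. Rpn2, Prkcsh, Ddost and Stt3a, subunits of oligosaccharyltransferase and of glucosidase II, rose by 1.84 ± 0.10, 1.76 ± 0.09, 1.65 ± 0.10 and 1.32 ± 0.09. Of 16 translocon and signal peptidase genes 10 rose, 2, Tram1 and Spcs3, fell and 4 were not called, near the 59.2% called higher among the 2750 genes with the highest levels, which held 14 of the 16. Their median of 0.70 turned to -0.16 with library totals, where 7 rose and 6 fell. Ssr4 and Ssr2, subunits of the translocon-associated complex, rose by 1.87 ± 0.12 and 1.53 ± 0.10, Sil1, which exchanges nucleotide on BiP, by 1.57 ± 0.11, and the signal peptidase subunit Sec11c by 1.41 ± 0.10. Of 27 further folding factors 19 rose and 3, Tmx1, Dnajb12 and Dnajb14, fell, with a median of 1.10; with library totals 11 rose and 8 fell, with a median of 0.24. The collagen chaperone Serpinh1 was at 10536 ± 1399 CPM in lactate and 2587 ± 302 CPM in control (log2 fold change 2.03 ± 0.14), and the prolyl isomerases Fkbp9 and Fkbp10 and the peroxiredoxin Prdx4 rose by 1.89 ± 0.11, 1.82 ± 0.11 and 1.96 ± 0.12.

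Of 25 further ERAD genes tested 11 rose, 6 fell and 8 were not called, against the 31.4% and 34.6% called higher and lower over all genes. Their median log2 fold change of 0.28 turned to -0.59 with library totals, where 1 rose and 14 fell, against 12.5% and 61.8% over all genes. Erlin2, a membrane scaffold for ERAD ligases, was at 5.88 ± 1.86 CPM in lactate and 45.9 ± 1.11 CPM in control (log2 fold change -2.97 ± 0.22, adjusted p = 7.6e-06). Bag6, a holdase for extracted proteins, and Ube2j2, a ubiquitin-conjugating enzyme, rose by 1.19 ± 0.10 and 1.06 ± 0.09. Of 12 further sensors and regulators tested 6 rose and 2, Creb3l1 and Creb3, fell, with a median of 0.73. Of these 12, 7 were among the 2750 genes with the highest levels, of which 59.2% were called higher. With library totals 3 of the 12 rose and 5 fell, with a median of -0.13, against 730 and 1358 of those 2750 genes. Tmbim6, an inhibitor of IRE1, rose by 1.43 ± 0.09, Ufm1, a ubiquitin-like modifier, by 1.76 ± 0.12 and Wfs1 by 1.11 ± 0.11, while Creb3l1, an ATF6-like factor, had a log2 fold change of -1.78 ± 0.15. Of 7 receptors that deliver the organelle to autophagy 5 rose and 1, Atl3, fell (-1.07 ± 0.11), with Rtn3, Tex264 and Retreg2 at 0.91, 0.96 and 0.62. The median of the 7 was 0.63. With library totals it was -0.22, and 0 rose and 2 fell, against a median of -0.96 and 61.8% called lower over all genes tested. Of 5 mRNAs known to be cut by IRE1 in mouse cells, Pdgfrb and Scara3 fell, at -1.27 ± 0.12 and -1.07 ± 0.12, and Sparc, Col6a1 and Bloc1s1 rose, at 1.67 ± 0.14, 0.80 ± 0.11 and 0.52 ± 0.13, Col6a1 and Bloc1s1 being below 0 with library totals. Genes of these lists beyond the 4 with the smallest p-values were named after their values were seen.

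Transcript length and level moved with the fold changes of all genes. The 1375 shortest genes, with length taken from the ratio of counts to FPKM, had a median log2 fold change of 0.78 and the 1375 longest genes -0.60. Once that trend was taken out the median of the 46 genes was 1.02, that of the chaperones and oxidoreductases 1.27 with 25 called higher, that of the ERAD genes 0.15, and that of the sensors and factors 0.04. By the authors' deposited table, 27 of the 46 genes were among the 6359 of 17273 genes they selected, 23 of them up and 4 down. The 4 were Dnajc1, Syvn1, Sel1l and Xbp1. How all 6359 genes divided into up and down was not counted. The authors' deposited table gave the same sign as the edgeR values for 45 of the 46 genes, the exception being Atf6, and, taking its FDR below 0.05 alone as a call, the same call for 45, the exception being Txndc11.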

How the data were processed

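RNA-seq of 3 lactate and 3 control libraries was analysed from the larger deposited table. Per the file headers it holds read counts and FPKM for each gene and library and the authors' log2 fold change, p-value and FDR; a smaller deposited table holds 6359 genes, those with an authors' p-value below 0.05 and a log2 fold change of at least 1 in either direction. Per the labels, total RNA was made into libraries with a SMARTER mRNA-Seq kit. Aligner, counter, strand setting and handling of multiply mapped reads: not given in the sources used here. GRCm38 and mm10, mouse builds, are named per the submitters' processing notes, while the gene names are those of rat, so no coordinate from that processing is used. Reads of paralogs, and of genes that overlap on opposite strands, may therefore be shared.

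The deposited counts were fitted with edgeR 4.0.16 (R 4.3.3): filterByExpr left 13747 of 17273 genes, TMM factors scaled the libraries, and the quasi-likelihood test compared lactate with control, with Benjamini-Hochberg adjustment over all genes tested. Calls are adjusted p below 0.05. Errors are SE for fold changes and SD over 3 libraries for levels. Depth of 30291357 to 38989574 counts makes 3 counts worth 0.0581 to 0.141 CPM; such floors cover counting error only. Alternatives were RLE factors, library totals, removal of the length trend, no filter, at least 1 CPM in 3 libraries, DESeq2 1.42.0, limma 3.58.1 (voom, and trend on log2(FPKM + 1) and log2(FPKM + 0.1)), the replicate number as a block, and leaving out each library. Same-numbered libraries were not paired: their deviations from the group means correlated at 0.0078 to 0.084. Replicates differed beyond sampling noise (chi-square per degree of freedom 16.3 to 60.3). Promoter sequences are RefSeq's, assembly GRCr8. Members, lists and ratios were chosen with earlier results of these data known. Every member is named; from each further list up to 4 called genes with the smallest p-values are named, with Atf4, Ddit3 and Ppp1r15a whatever their result. A gene that this rule picks is not reported here.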

Additional observations from a re-analysis of the deposited data

How the results depend on the processing

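Of the 46 genes, 28 kept direction and side of the threshold in all 16 alternatives. The scaling moved most: with library totals, log2(FPKM + 1) and log2(FPKM + 0.1) alike, 16 of the 46 genes were called lower (6 with TMM factors), 6 of the chaperones and oxidoreductases (1) and 6 of the ERAD genes (2), and 1 sensor or factor was called higher (2). In that order of settings the median log2 fold change was 0.25, 0.24 and 0.24 for all 46, 0.52, 0.49 and 0.51 for chaperones and oxidoreductases, -0.54, -0.55 and -0.57 for ERAD genes, and -1.05, -1.03 and -1.05 for sensors and factors. Taking out the trend on length gave medians of 1.02, 1.27, 0.15 and 0.038 for the same sets, and 2 chaperone or oxidoreductase genes were called lower, as they were without a filter, at 1 CPM in 3 libraries, with voom and with the replicate block; Fkbp14 was the added gene. The block also left 0 N-glycan genes called lower (1 without it); it moved no other count of calls over the 46 genes, their roles or the further lists by over 1.5 times. Since replicate numbers did not pair the libraries it is a check only. The 2.56-point gain in the share of counts was 0.88 without Hspa5 and 1.88 as a share of summed FPKM. Leaving out each library gave medians of 1.09 to 1.18 for all 46 genes, 1.35 to 1.45 for chaperones and oxidoreductases, and 1 to 2 sensors called higher.

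Direction turned in the same 3 settings (library totals, FPKM + 1, FPKM + 0.1) for Hspa13 (-0.37, -0.37, -0.39), Txndc11 (-0.62, -0.60, -0.63), Derl2 (-0.54, -0.55, -0.57), Edem2 (-0.66, -0.62, -0.66), Vcp (-0.20, -0.21, -0.21), Eif2ak3 (-0.16, -0.23, -0.27) and Atf6 (-0.85, -0.84, -0.86), and for Dnajb11 on both FPKM scales (-0.0086, -0.0087). Medians turned for the translocon (-0.16, -0.16, -0.17), further ERAD (-0.59, -0.55, -0.59), further sensors (-0.13, -0.18, -0.13), receptors for autophagy (-0.22, -0.22, -0.25) and mRNAs cut by IRE1 (-0.34, -0.34, -0.35, and -0.45 with the length trend removed). These 3 settings carry no factor for the make-up of the libraries, and the cause of the difference in make-up was not tested.

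Eif2ak3 lost its call without the third lactate library and without each control library (adjusted p = 0.082, 0.10 and 0.089). Mbtps1 lost its call without the second control library (0.053), and Txndc11 lost its call in 5 of the 6 fits with a library left out, with no filter (0.094) and with the block (0.083). Derl2 was called higher with RLE factors and DESeq2 (0.35 each). Without the third lactate library Edem2 was called higher (0.37) and Edem3 lower (-0.39). Depth limits mainly Derl3 and Ero1b, which have the lowest counts of the 46 genes.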
